A study of Rattus norvegicus with 25 samples.

Results

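The circadian clock genes described here are 10 genes, Arntl, Clock, Npas2, Per1, Per2, Per3, Cry1, Nr1d1, Nr1d2 and Dbp, taken from the 26312 gene identifiers of each deposited table by their gene name, ignoring case. Each of the 10 had 1 identifier, and all 10 passed the filter on low counts in both regions. The libraries came from adult male, wild-type Sprague-Dawley rats. Punches of the left basolateral amygdala (BLA) and the left dorsal dentate gyrus (DG) were taken on day 9 after stress, and poly-A RNA was sequenced in bulk. Stress-exposed rats had been immobilized for 3 h with fox urine present and blood drawn, and were kept in a separate room for 2 nights. Blood drawing and this housing cannot be told apart from the stress in contrasts with controls. The rats were then chosen by a composite anxiety-like behavior score. The stress-low group held scores of 0 to 2 and the stress-high group scores of 13 to 15. Controls, labelled undisturbed, stayed in the home cage apart from handling, weighing and a cage change and had scores of 0 to 6. All these score ranges are those the study gives for the animals it selected. The libraries carry 14 animal numbers, more than the study selected, so the ranges may not cover every animal. Library names divide the controls into low and high ones, which were pooled here. All groups went through the same behavioral tests before tissue was taken. The rats lived on a light-dark cycle, and the clock hour at which each one was killed is not given in the sources used here. In bulk tissue, fewer cells of a type and less RNA per cell cannot be told apart.

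There were 13 BLA libraries (7 control, 3 stress-low, 3 stress-high) and 12 DG libraries (6, 3 and 3), with total expected counts of 12709493 to 22801247 and 11656439 to 19477932. The control library of animal 2 in the BLA and that of animal 35 in the DG stood apart on the first principal component (score 46.4 against -17.3 to 12.5 in the other BLA libraries, and 56 against -13.7 to 2.28 in the DG). Both were left out of the comparisons, since the study also left out a control of each region (in the DG after low RNA quality and a new extraction), and results that they change are also given with them. The BLA library of animal 35 is a control by its library name, while its treatment field names stress. It was kept among the BLA controls, and fits without it gave no member past the adjusted threshold used below. Slc17a7, the vesicular glutamate transporter of cortical excitatory neurons, had a median of 1050 TPM (a transcript level scaled by gene length and by the library's total) in the BLA and 1830 TPM in the DG. Prox1, which marks dentate granule cells, had medians of 2.57 and 73.3 TPM, and Ttr, the main transcript of choroid plexus, was listed at 0 TPM in every BLA library used. Of the 3 BLA markers, Etv1 (108 against 9.62 TPM) and Slc17a6 (14.9 against 2.22 TPM) had the higher median in the BLA, and Rspo2 did not (12 against 20.1 TPM).

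The molecular clock is a feedback loop of transcription. The proteins of Arntl (Bmal1) and Clock, or of Npas2 in place of Clock, bind E-boxes and switch on the Per and Cry genes, whose products return to block them, and the same E-boxes drive Nr1d1 and Nr1d2 (Rev-erb alpha and beta), which repress Arntl through ROR elements. Dbp is an output of the loop that acts on D-boxes. Nr1d1, Nr1d2, the Per genes and Dbp peak in the same part of the day, and Arntl at about the opposite time. The loop runs in most brain cells, and glucocorticoids act on it through Per1 among others.

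The stretches before the transcription start are shown for the 3 members in which a clock motif was found, because the correlations below are grouped by the motifs members are known for. RefSeq promoters (build GRCr8) were found for 9 of the 10 members, not for Cry1. The 250 bases before the start were searched on both strands for the E-box CACGTG, the variant E-box CACGTT, the D-box TTATGTAA or TTACGTAA, the ROR element TAGGTCA or TGGGTCA and the cAMP response element TGACGTCA. Capitals mark the matches, and each run reads 5′ to 3′ toward the start on the strand of the gene. Arntl lies at chr1:176766078-176766327 (plus strand), Per2 at chr9:99496994-99497243 (minus strand) and Nr1d1 at chr10:84231813-84232062 (minus strand).
Arntl: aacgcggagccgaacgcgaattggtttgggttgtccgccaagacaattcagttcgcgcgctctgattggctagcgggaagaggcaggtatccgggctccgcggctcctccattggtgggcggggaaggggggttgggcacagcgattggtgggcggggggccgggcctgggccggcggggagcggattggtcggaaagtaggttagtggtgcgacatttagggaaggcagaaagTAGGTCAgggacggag
Per2: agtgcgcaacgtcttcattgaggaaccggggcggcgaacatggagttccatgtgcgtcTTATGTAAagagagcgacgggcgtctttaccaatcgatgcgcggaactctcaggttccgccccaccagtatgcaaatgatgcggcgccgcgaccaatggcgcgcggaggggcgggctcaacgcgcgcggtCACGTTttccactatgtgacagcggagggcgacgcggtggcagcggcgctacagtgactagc
Nr1d1: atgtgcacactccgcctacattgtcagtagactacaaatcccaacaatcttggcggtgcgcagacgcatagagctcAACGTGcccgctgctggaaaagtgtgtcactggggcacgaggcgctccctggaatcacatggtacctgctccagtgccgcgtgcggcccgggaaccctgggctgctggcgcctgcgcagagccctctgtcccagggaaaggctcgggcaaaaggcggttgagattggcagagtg

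In Arntl the ROR element TAGGTCA lay 16 to 10 bases before the start. Per2 held a D-box 192 to 185 bases and a variant E-box 62 to 57 bases before it, and Nr1d1 a variant E-box, read as AACGTG on its own strand, 174 to 169 bases before it. Over all 33469 RefSeq promoters of this length, 5.59% held the E-box, 4.07% the variant E-box, 0.932% a D-box, 5.62% a ROR element, 1.59% the cAMP response element and 16.6% any of these. A match is a description of letters and no binding site, and the windows of the other 6 members held none of these letters.

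The level of the members in each region was described first. In the BLA, Dbp had the highest mean over the 12 libraries used, 116 TPM (SD 19.8), followed by Nr1d1 at 67.3 TPM (SD 11.2). Nr1d2 (35.9 TPM, SD 3.64) and Npas2 (35.1 TPM, SD 2.95) came next with overlapping ranges, then Arntl (23.6 TPM, SD 2.22). Per1 (15.6 TPM, SD 2.51), Per2 (14.8 TPM, SD 1.68), Clock (13.8 TPM, SD 1.69) and Per3 (11.5 TPM, SD 1.84) formed a run in which each range overlapped that of the next, and Cry1 was lowest at 5.89 TPM (SD 0.668). The ranges of Arntl and Per1 overlapped as well, whereas those of Dbp and Nr1d1, Nr1d1 and Nr1d2, Npas2 and Arntl, and Per3 and Cry1 did not.

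In the DG the order began in the same way over 11 libraries, with Dbp at 117 TPM (SD 13), Nr1d1 at 64.8 TPM (SD 7.15) and Nr1d2 at 36 TPM (SD 2.79), none of them overlapping the next. Per1 (29.1 TPM, SD 1.9) and Per3 (21.8 TPM, SD 1.86) followed without overlap. From Per3 down, each range overlapped the next, through Per2 (16.8 TPM, SD 1.19), Arntl (15.8 TPM, SD 1.38), Clock (12.4 TPM, SD 1.49) and Cry1 (8.27 TPM, SD 1.23) to Npas2 (7.85 TPM, SD 0.616). Npas2, the Clock paralog known from forebrain, thus was among the more abundant members in the BLA (29.55 to 40.07 TPM) and lowest in the DG (7.08 to 8.97 TPM). The regions were deposited as separate tables, and the read layout (how each fragment was read) differs between them, so the levels were not tested between regions. Region and read layout therefore cannot be told apart in the contrasts of BLA with DG values given here.

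**Figure D1:**
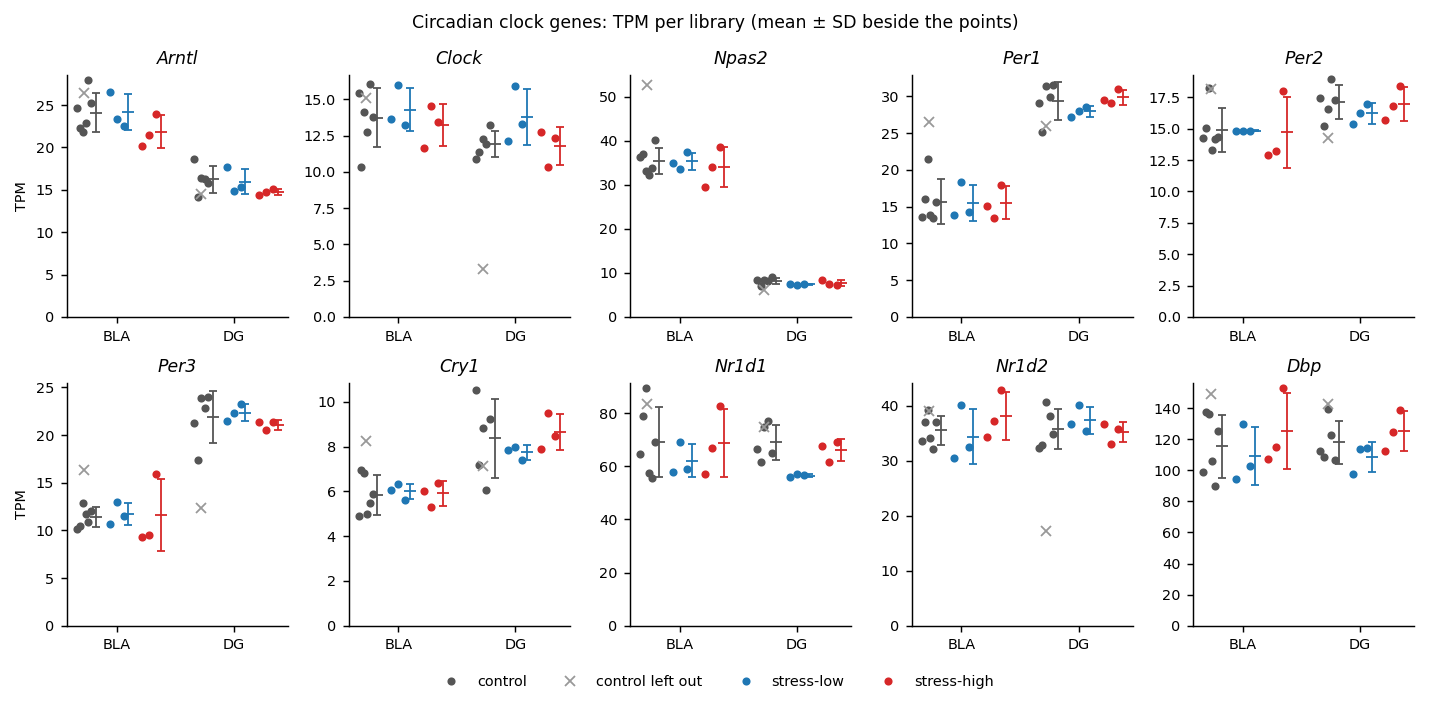
TPM (y axis, from 0) of each clock gene in every library of the BLA and the DG, with controls in grey, stress-low in blue and stress-high in red; the tick and bar beside the points are the group mean and SD, and crosses are the left-out controls (BLA animal 2 and DG animal 35). The DG stress-low points of Nr1d1, at 55.89 to 56.96 TPM, lie below the other used DG points of that gene, and the groups overlap in most other panels.

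Whether stress or its behavioral outcome went with a change of clock gene level was asked in 3 comparisons per region, between stress-high and stress-low animals and between each of these and controls. None of the 10 members passed an adjusted p of 0.05 in any of the 6 comparisons (edgeR quasi-likelihood test with adjustment over all genes), and 0% of the 15230 BLA genes and 0% of the 14080 DG genes passed it. At an unadjusted p under 0.05 stood 0 members in each BLA comparison, where 1.98% of all genes (stress-high against stress-low), 2.75% (stress-low against control) and 2.57% (stress-high against control) did so. In the DG, 2 members stood there for stress-high against stress-low (Nr1d1 and Dbp, against 3.12% of all genes), 2 for stress-low against control (Nr1d1 and Clock, against 6.9%) and 0 for stress-high against control (against 2.19%). The median size of the log2 fold change over the 10 members was 0.106 for DG stress-high against stress-low (all genes 0.0816), 0.084 for DG stress-low against control (0.0901), and 0.041 to 0.059 in the 3 BLA comparisons (0.0699 to 0.0722).

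Among the activators, Arntl had 21.78, 23.77 and 27.92 TPM (lowest, median and highest) in the 6 BLA controls, 26.54, 23.39 and 22.57 TPM in the stress-low animals 22, 30 and 34, and 20.17, 21.44 and 23.97 TPM in the stress-high animals 7, 19 and 20. The log2 fold change of stress-high against control was -0.14 (SE 0.08, edgeR adjusted p = 1). In the DG, Arntl was at 18.6, 14.2, 16.34, 16.28 and 15.85 TPM in the controls 2, 14, 17, 28 and 32, at 17.67, 14.9 and 15.32 TPM in the stress-low animals 22, 33 and 34, and at 14.37, 14.72 and 15.11 TPM in the stress-high animals, a log2 fold change of -0.12 (SE 0.08) against control. The lowest mean of Arntl was in the stress-high group in both regions, and all groups overlapped.

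Clock, the histone acetyltransferase partner of Arntl, had 10.88, 11.37, 12.28, 11.93 and 13.23 TPM in the DG controls, 12.11, 15.94 and 13.31 TPM in the stress-low animals and 12.74, 10.32 and 12.33 TPM in the stress-high animals. Its difference of stress-low from control was 0.22 on the log2 scale (SE 0.10, edgeR adjusted p = 0.718), and the groups overlapped (exact two-sided permutation p = 0.107 on TPM). Stress-high against stress-low differed by -0.22 (SE 0.11) in the DG. In the BLA both differences were small, at 0.02 (SE 0.11) and -0.07 (SE 0.12). Npas2 differed by at most 0.12 on the log2 scale in size (DG stress-low against control, -0.12, SE 0.08).

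Of the Per and Cry genes, the repressors of the loop, none stood at an unadjusted p under 0.05 in any comparison. Over all libraries used, Per2 ran from 12.93 to 18.25 TPM in the BLA and from 15.22 to 18.96 TPM in the DG, and Cry1 from 4.88 to 6.97 TPM and from 6.06 to 10.54 TPM. Per1 had 27.19, 28.05 and 28.6 TPM in the DG stress-low animals and 29.55, 29.03 and 30.96 TPM in the stress-high animals, and Per3 had 21.46, 22.3 and 23.31 TPM against 21.34, 20.5 and 21.33 TPM. For both genes these groups did not overlap, Per1 with the higher and Per3 with the lower values in stress-high animals, but the log2 differences were 0.10 (SE 0.06) and -0.08 (SE 0.09). With 3 against 3 libraries the exact permutation test cannot give a p below 0.1. In the BLA, Per3 was at 9.32 and 9.51 TPM in the stress-high animals 7 and 19 and at 15.96 TPM in animal 20, the highest of all 12 libraries, so that the group mean rested on 1 animal. In the BLA the log2 differences of Per2 and Cry1 between groups ran from -0.04 to 0.03. In the DG the one farthest from 0 was 0.16 (SE 0.16), for Cry1 in stress-high against stress-low.

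Nr1d1, a heme-binding repressor of Arntl, had the group difference farthest from 0 among the 10. In the DG it had 66.53, 61.56, 74.87, 77.18 and 64.92 TPM in the controls 2, 14, 17, 28 and 32. The stress-low animals 22, 33 and 34 had 55.89, 56.96 and 56.7 TPM, and the stress-high animals 7, 19 and 20 had 67.56, 61.64 and 69.19 TPM. Each stress-low value lay below every other DG value used. The log2 fold change of stress-low against control was -0.27 (SE 0.07, edgeR adjusted p = 0.718), with an exact two-sided permutation p of 0.0536 on TPM. Between stress-high and stress-low it was 0.23 (SE 0.08, edgeR adjusted p = 1), with an exact permutation p of 0.1, the smallest possible. With another test (EBSeq), the study itself called Nr1d1 differentially expressed for this contrast on the same libraries. The call thus differs between the tests, and the direction seen here is not independent evidence. Groups did not overlap in TPM for 3 members (Nr1d1, Per1, Per3) between stress-high and stress-low in the DG, where 8.69% of all genes did not overlap, and for 1 member (Nr1d1) between stress-low and control, against 3.71%. No member had groups without overlap in the DG for stress-high against control (all genes 1.46%) or in the BLA (5.89%, 1.39% and 0.978% of all genes in the same order of comparisons).

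The same contrasts of Nr1d1 in the BLA were -0.19 (SE 0.12) for stress-low against control and 0.18 (SE 0.14) for stress-high against stress-low. Its BLA values ran over 55.4, 66.7 and 89.52 TPM (lowest, median and highest) in controls, 57.98, 69.16 and 59.01 TPM in the stress-low animals 22, 30 and 34, and 57.2, 66.69 and 82.64 TPM in the stress-high animals 7, 19 and 20, and all groups overlapped. Nr1d1 shares an overlap of 1061 bases with Thra, the thyroid hormone receptor alpha gene, in RefSeq, and its expected counts were not whole numbers in all 13 BLA and all 12 DG libraries, whereas in the DG the counts of the other 9 members were whole throughout. In the BLA other members also had counts that were not whole, among them Npas2 (8 of 13 libraries), Per1 (7) and Dbp (6), of which Per1 and Dbp overlap no gene in RefSeq. A count that is not whole has reads that RSEM divided between genes, and the strand setting of the counting is not given in the sources used here. Thra lay at 395.38 to 420.86 TPM in the DG stress-low group, inside the 395.48 to 441.89 TPM of the controls but for its lowest value, and at 358.65 to 416.48 TPM in the stress-high group.

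Nr1d2, the paralog of Nr1d1, did not have the same order in the DG. It had 32.23, 32.92, 40.68, 38.05 and 34.75 TPM in the controls, 36.61, 40.08 and 35.3 TPM in the stress-low animals and 36.6, 33.09 and 35.79 TPM in the stress-high animals. Its difference of stress-high from stress-low was -0.08 (SE 0.09) in the DG and 0.19 (SE 0.09) in the BLA. The difference between these differences, tested as an interaction in 1 fit of both regions, was -0.25 (SE 0.12, edgeR adjusted p = 1). That fit had no term for the animal, although 9 animals gave a used library in both regions. No member passed the interaction test in any of the 3 comparisons, and 0% of the 13865 genes tested in both regions did.

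Dbp, the output gene, had 112.31, 108.77, 139.5, 122.75 and 106.4 TPM in the DG controls, 97.44, 113.93 and 114.58 TPM in the stress-low animals and 112.66, 124.56 and 138.54 TPM in the stress-high animals. The groups overlapped, since animal 7 of the stress-high group was below the stress-low animals 33 and 34. Stress-high against stress-low differed by 0.21 on the log2 scale (SE 0.10, edgeR adjusted p = 1) in the DG and by 0.23 (SE 0.15, edgeR adjusted p = 1) in the BLA, where the stress-low animals 22, 30 and 34 had 94.17, 130.14 and 102.86 TPM and the stress-high animals 107.34, 115.09 and 152.89 TPM. Against control, Dbp of stress-high animals differed by 0.11 (SE 0.09) in the DG and 0.10 (SE 0.13) in the BLA.

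**Figure D2:**
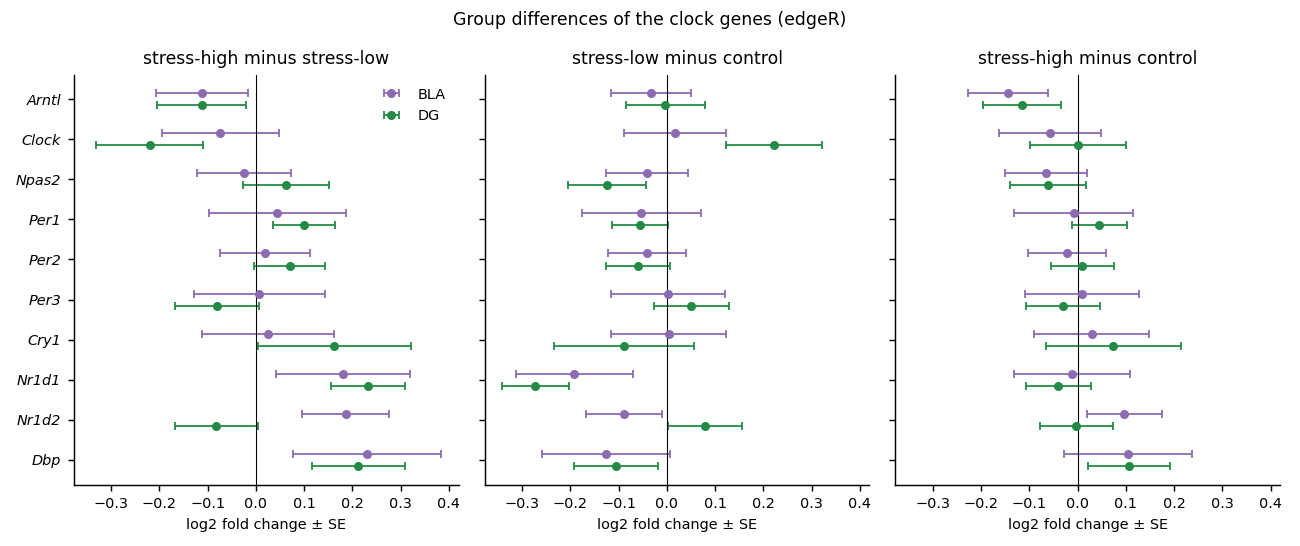
Log2 fold change (x axis) with its standard error for each clock gene in the 3 group comparisons, BLA in purple and DG in green, from edgeR fits of 12 and 11 libraries. Among the points farthest from 0 are Nr1d1 in the DG, -0.27 for stress-low minus control, and Nr1d1 and Dbp at 0.23 (DG and BLA) for stress-high minus stress-low, and none passed the adjusted threshold.

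Of the 21 other clock genes listed (casein kinases, F-box proteins, Bhlhe and Ror genes and further output genes), 19 were found by name and 18 were tested in each region. None passed the adjusted threshold, and in 5 of the 6 comparisons none stood at an unadjusted p under 0.05. In the DG, stress-low against control, 2 stood there, where 6.9% of all genes did so. Timeless, a partner of replication forks related to the fly clock gene, was higher by 0.60 on the log2 scale (SE 0.26, edgeR adjusted p = 0.718), at TPM values of 0.66 or less, and Rorb, an activator at ROR elements, was lower by a log2 difference of -0.65 (SE 0.29, edgeR adjusted p = 0.718). Glucocorticoid-induced genes were looked at because glucocorticoids act on Per1. Of 9, none passed the adjusted threshold. At an unadjusted p under 0.05 stood Fkbp5, the chaperone that dampens the glucocorticoid receptor, for DG stress-high against stress-low (0.30, SE 0.13) and against control (0.26, SE 0.11). Ddit4, an inhibitor of mTOR, stood there for DG stress-low (-0.27, SE 0.09) and stress-high (-0.20, SE 0.08) against control, the kinase gene Sgk1 for DG stress-low against control (0.30, SE 0.14), and Tsc22d3 (Gilz) for BLA stress-high against control (0.31, SE 0.11). Of 11 immediate early genes, which mark recent neuronal activity, none passed the adjusted threshold, and Junb (-0.21, SE 0.09) and Arc (-0.34, SE 0.15) stood at an unadjusted p under 0.05 for DG stress-low against control and Nr4a1 (-0.37, SE 0.14) for BLA stress-low against control. Over all genes, 6.9% stood there for DG stress-low, 2.19% for DG stress-high, 2.75% for BLA stress-low and 2.57% for BLA stress-high against control. For DG stress-high against stress-low the share was 3.12%. The summed TPM of these lists and of each cell type list overlapped between the DG stress-low group and the controls (for granule cell markers, 359 to 414 against 357 to 610), while some single markers stood apart. Camk2a, a kinase gene of excitatory neurons, had 1040 to 1090 TPM in the stress-low group and 1130 to 1400 TPM in controls without overlap (-0.16, SE 0.07), and at an unadjusted p under 0.05 stood also Ppp1r1b, the striatal phosphoprotein gene (-0.17, SE 0.07), each with an edgeR adjusted p of 0.718. Of 3 oligodendrocyte markers, 1 was also at an unadjusted p under 0.05 in this comparison, higher in the stress-low group. The part of these markers in the Nr1d1 difference was not tested.

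Whether members known to peak together also varied together among animals of a group was asked next. For this the mean of its group was subtracted from each library's log2(TPM + 0.1), and pairs of members were correlated over libraries with exact permutations within groups, adjusted over the 45 pairs of a region. The 6 members driven by E-boxes and D-boxes (Nr1d1, Nr1d2, Per1, Per2, Per3, Dbp) gave 15 pairs, and these 6 with the activators Arntl, Clock and Npas2 gave 18 pairs. Cry1, which E-boxes also switch on, was placed in neither set.

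In the BLA the 6 genes varied together. All 15 pairs had r above 0.6, from 0.62 to 0.94 with a median of 0.79, while 13.5% of all 115968835 pairs of tested BLA genes reached 0.6, with a median r of 0.21. Of the 45 pairs, 12 passed the adjusted threshold, of which 11 were among these 15 and the other one was Per1 with Cry1. By rho 5 of these 12 passed, and on log2 CPM 6 of the 45 pairs passed. The 2 libraries farthest from the median of Per2 carried much of its pairs with Nr1d2 (r = 0.64, and 0.39 without them) and Per1 (r = 0.79, and 0.41 without them). Likewise, the 2 libraries farthest from the median of Per3 carried much of its pairs with Nr1d1 (0.62, and 0.29 without them) and Per2 (0.78, and 0.39). The closest pair was Nr1d2 and Dbp (r = 0.94, exact permutation p = 0.000116, adjusted p = 0.00434; rho = 0.88, adjusted p = 0.0104), and r was 0.93 without the 2 libraries farthest from the median of Nr1d2. Nr1d1 and Dbp followed (r = 0.91, exact permutation p = 0.000463, adjusted p = 0.00694; rho = 0.90, adjusted p = 0.0249; r = 0.89 without 2 libraries). Nr1d1 and its paralog Nr1d2 gave r = 0.85 (exact permutation p = 0.000193, adjusted p = 0.00434; rho = 0.87, adjusted p = 0.0104; r = 0.80 without 2 libraries), and Per1 and Cry1 gave r = 0.78 (exact permutation p = 0.00328, adjusted p = 0.0184; rho = 0.84, adjusted p = 0.0451; r = 0.76 without 2 libraries).

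In most animals all 6 genes lay on the same side of their group mean. In the stress-high animal 20, the control 27 and the stress-low animal 30, all 6 genes lay above their group mean, by 0.30, 0.29 and 0.18 on the log2 scale on average. In the controls 14 and 32, the stress-high animals 7 and 19 and the stress-low animal 22, none did, with mean deviations of -0.13, -0.18, -0.18, -0.12 and -0.12. Leaving out control 27 reduced the pairs past the threshold from 12 to 3, and leaving out control 14 or stress-high animal 20 reduced them to 6, while the median r of the 15 pairs was 0.74 to 0.83 without any single library. Among the 6 controls alone it was 0.79 and no pair passed, but these allow too few permutations for 1 pair alone to pass. Other measures varied with these genes over the 12 libraries. The summed TPM of 3 endothelial markers gave r = 0.70 with Nr1d1, 0.73 with Nr1d2 and 0.61 with Dbp, and that of 3 inhibitory neuron markers 0.77 with Nr1d2 and 0.64 with Per3, while the total expected count gave -0.22 with Nr1d1. Thra, whose gene overlaps Nr1d1, gave 0.73 with Nr1d1, 0.88 with Per2, 0.70 with Cry1 and 0.69 with Per1. The summed TPM of the 9 glucocorticoid-induced genes gave 0.76 with Per1 and 0.64 with Cry1, and that of 3 leptomeningeal markers -0.84 with Cry1, 0.79 with Clock and -0.59 with Dbp. The part of these measures in the correlations was not tested.

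**Figure D3:**
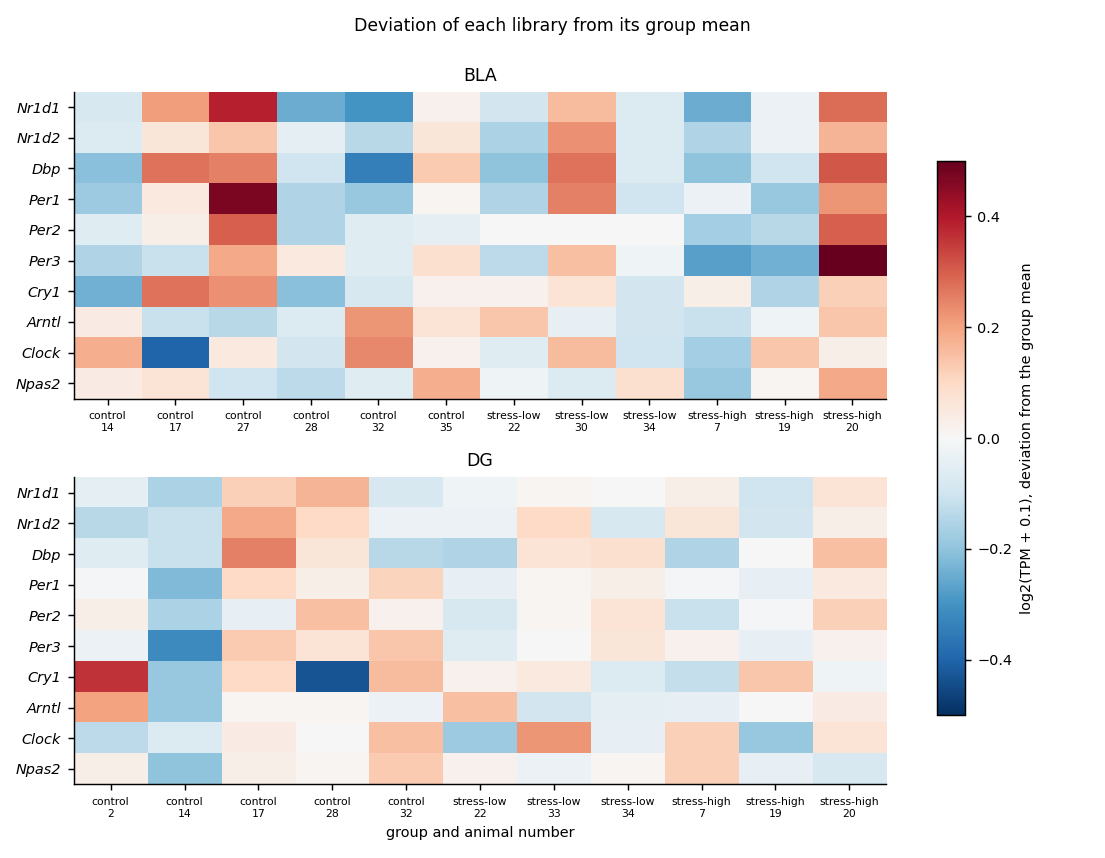
Deviation of log2(TPM + 0.1) from the group mean (color, red above and blue below 0) for the 10 clock genes (rows) in each library (columns, by group and animal number) of the BLA and the DG. In BLA animals 20, 27 and 30 the 6 upper rows (Nr1d1, Nr1d2, Dbp and the Per genes) are at or above the group mean, with column means of 0.30, 0.29 and 0.18, and in DG animal 14 all 10 rows are below it.

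The 18 pairs between the arms had a median r of 0.04 in the BLA, from -0.34 to 0.41, with 7 below 0 and none past the threshold. Arntl gave -0.26 with Nr1d1 (exact permutation p = 0.464, adjusted p = 0.674; rho = -0.29, adjusted p = 0.62), -0.32 with Dbp and -0.34 with Per1, and Arntl and Clock gave 0.51 (exact permutation p = 0.139, adjusted p = 0.297). Arntl also gave -0.78 with the summed TPM of 3 microglia markers. The relation between the arms depended on the scale. On log2 CPM (counts scaled to the library size with TMM), the median r over all pairs of genes was -0.00 in place of 0.21. On that scale the median of the 15 pairs was 0.67 (8 of them at 0.6 or more, against 4.87% of all pairs) and the median between the arms was -0.43, with 13 of 18 below 0. Arntl then gave -0.80 with Nr1d1 (exact permutation, adjusted p = 0.0336) and -0.83 with Per1 (adjusted p = 0.0365), and Clock gave -0.84 with Cry1 (adjusted p = 0.0448).

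In the DG the SD of the log2 values within groups was 0.108 for Nr1d1 and 0.151 for Dbp, against 0.244 and 0.257 in the BLA. In the BLA these SDs were above those of 94% and 95% of genes of like level (mean TPM within 0.5 on the log2 scale), and in the DG above 57% and 82.7%. Of the same 15 pairs, all had r above 0, with a median of 0.57, and 6 reached 0.6, as did 8.08% of all 99116160 pairs of tested DG genes (median r 0.06). Only Per1 and Per3 passed the threshold (r = 0.98, exact permutation p = 0.000463, adjusted p = 0.0208; rho = 0.88, adjusted p = 0.0521; r = 0.89 without 2 libraries). Nr1d1 and Nr1d2 gave r = 0.80 and Nr1d1 and Dbp 0.64, neither past it. The summed TPM of 6 striatal and central amygdala markers gave r = 0.79 with Per1 and 0.80 with Per3 over these libraries, and that of 3 microglia markers 0.73 with Nr1d1, 0.68 with Nr1d2 and 0.64 with Dbp. Their part was not tested.

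Between the arms the median r of the DG was 0.29, with 15 of 18 pairs above 0, and the largest were Npas2 with Per3 (0.78) and with Per1 (0.70). Npas2 also gave 0.79 and Per3 0.62 with the summed TPM of 3 granule cell markers. This median was -0.10 without control animal 14, in which all 6 genes and all 3 activators lay below the group mean, and 0.03 on log2 CPM. Cry1, whose r with the 6 genes was 0.38 to 0.78 in the BLA, had -0.39 to 0.25 with them in the DG. The DG values rested on control animal 28, in which Cry1 was lowest (6.06 TPM): over its 9 pairs with the other members Cry1 had a median r of -0.06 (4 above 0) with that library and 0.41 (7 above 0) without it. With the left-out library of animal 35 added, the median of the 15 DG pairs was 0.32 and no pair passed. The difference between the regions was not tested.

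**Figure D4:**
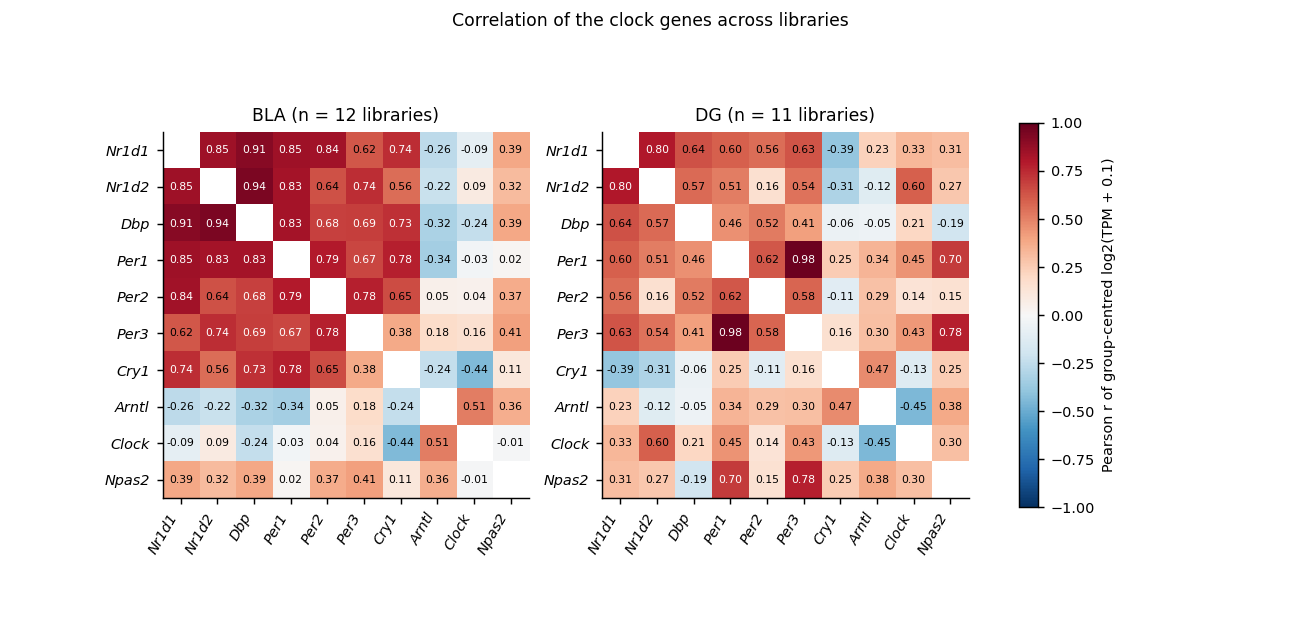
Pearson r of each pair of clock genes over 12 BLA libraries (left) and 11 DG libraries (right), from group-centred log2(TPM + 0.1), on a color scale from -1 (blue) to 1 (red). The upper left block of Nr1d1, Nr1d2, Dbp and the Per genes runs from 0.62 to 0.94 in the BLA and from 0.16 to 0.98 in the DG.

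The genes most like Nr1d1 in both regions, of the other 13864 genes tested in both, were ranked by the smaller of the r in the BLA and the DG. They were Rnf31 (0.89 and 0.91), a subunit of the linear ubiquitin ligase, Pnmal1 (0.86 and 0.88), Trabd (0.86 and 0.89), Jph4 (0.83 and 0.81), a junctophilin of neurons, and Zgpat (0.83 and 0.81). Among the clock genes, Nr1d2 was at rank 7 with 0.85 and 0.80, and Dbp was at rank 177, Per3 at 232, Per1 at 289, Per2 at 502, Npas2 at 2760, Clock at 8966, Arntl at 11300 and Cry1 at 12536. For Arntl the list was led by ENSRNOG00000050913 (0.84 and 0.87), which has no name in the tables, followed by RT1-A2 (0.80 and 0.74), Slc12a8 (0.76 and 0.73), RT1-CE5 (0.87 and 0.72) and FN1 (0.70 and 0.79), the fibronectin gene. RT1-A2 and RT1-CE5 are class I histocompatibility genes whose near-identical copies can share reads. These values describe 12 and 11 libraries and carry no test.

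Agreement of both regions within an animal was asked last, since punches of the same brain share the hour of death. It was measured over the 9 animals with a used library in both regions (controls 14, 17, 28 and 32, stress-low 22 and 34, stress-high 7, 19 and 20), again after subtraction of the group means. Of the 10 members, 8 had r above 0, as did 64.9% of the 13865 genes tested in both regions, and the median r was 0.29 for the members and 0.18 for all genes.

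For Dbp, the r between BLA and DG was 0.93 (exact permutation p = 0.00347, the smallest the 288 permutations allow, adjusted over the 10 members 0.0347), with rho = 0.98 (exact permutation p = 0.00347, adjusted p = 0.0347), and 99.4% of all genes had a lower r. Among the controls, animal 17 was highest in both regions (137.65 TPM in the BLA and 139.5 TPM in the DG) and animal 32 lowest in both (89.79 and 106.4 TPM). Animals 28 (106.07 and 122.75 TPM) and 14 (98.62 and 108.77 TPM) lay between them in that order in both. The stress-high animals 7, 19 and 20 held the same order in both regions (107.34, 115.09 and 152.89 TPM, against 112.66, 124.56 and 138.54 TPM), as did the stress-low animals 22 and 34 (94.17 and 102.86 TPM, against 97.44 and 114.58 TPM). Without the 2 animals farthest from the BLA median r was 0.87, and without any single animal it lay between 0.87 and 0.96, with adjusted p of 0.0694 to 0.278. With 1 animal fewer, too few permutations remain for Dbp alone to reach an adjusted p under 0.05, so these fits cannot decide whether its call holds. On log2 CPM r was also 0.93 (adjusted p = 0.104). With animals 2 and 35 added, each with 1 library that stood apart, r was 0.63 (adjusted p = 0.481), and over the 14 settings tried the adjusted p ran from 0.0036 to 0.481. Animal 2 had 148.85 TPM in the BLA and 112.31 TPM in the DG, and animal 35 had 125.16 and 142.96 TPM.

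No other member passed the test. Cry1 (0.45), Per1 (0.43), Per2 (0.34), Nr1d2 (0.32), Arntl (0.27), Nr1d1 (0.25) and Per3 (0.21) had r above 0 and Clock (-0.24) and Npas2 (-0.60) below 0, with adjusted p of 0.567 to 0.635 by exact permutation. Nr1d1, whose BLA level followed that of Dbp closely, deviated to the same side in both regions in 6 of the 9 animals, and Dbp in 8. Over the 10 members of 1 animal, r between the regions' deviations ran from -0.61 (animal 19) and -0.36 (animal 7) to 0.66 (animals 22 and 34), with 7 of the 9 animals above 0.

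**Figure D5:**
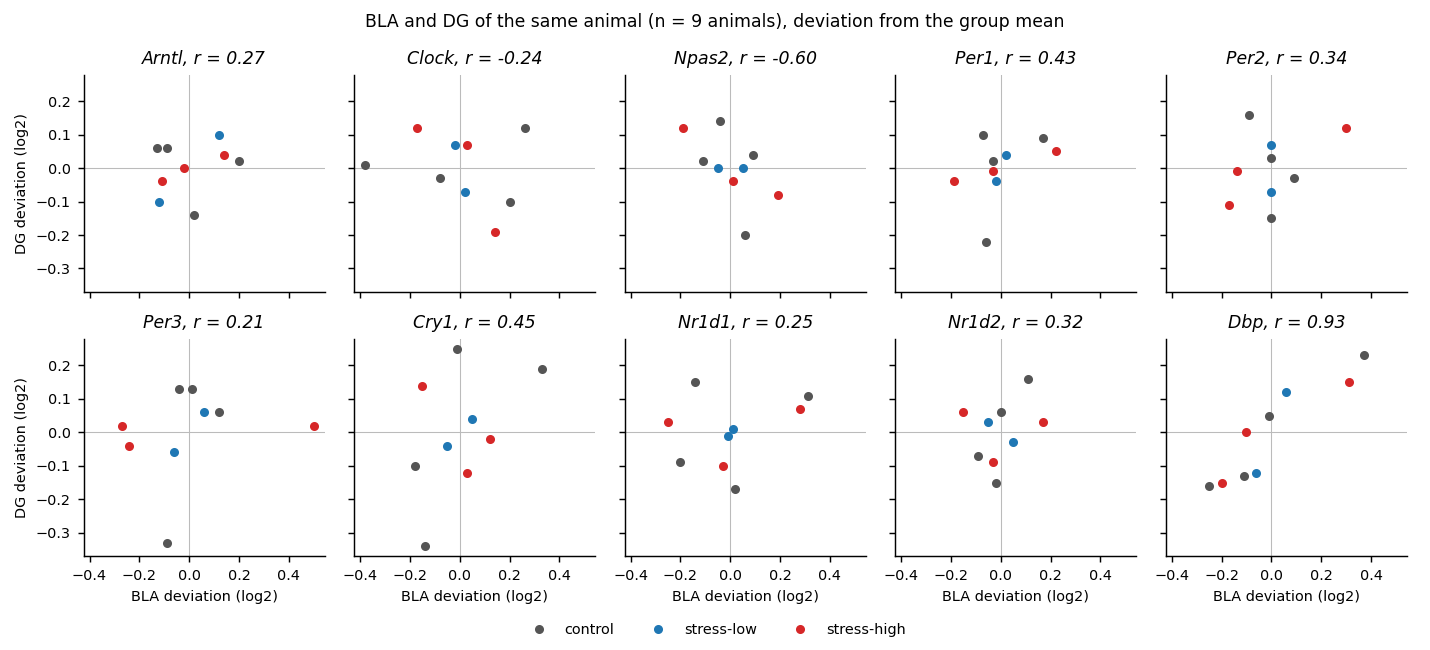
Deviation of log2(TPM + 0.1) from the group mean in the BLA (x axis) and the DG (y axis) of the same animal for each clock gene, with 9 animals colored by group and Pearson r above each panel. The Dbp points rise along a line (r = 0.93), while the points of the other members scatter (r from -0.60 to 0.45).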

How the data were processed

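Bulk poly-A RNA was measured in 25 libraries, grouped by the library names in the labels. Per the submitters' notes and methods, STAR 2.6.0a (genome Rn5, Ensembl build 75) and RSEM 1.3.1 were used. The authors deposited, per region, an expected count, a TPM value and a gene length and effective length in bases for each identifier. The deposited expected counts are estimates that need not be whole and were rounded. The test was edgeR's quasi-likelihood F test (version 4.0.16, R 4.3.3) after TMM scaling, in a model with the 3 groups of a region, over genes kept by filterByExpr (min.count 10), with Benjamini-Hochberg adjustment over all of them and a threshold of 0.05. Differences between regions were tested in 1 edgeR fit of 6 group means without a term for the animal, and as an alternative with limma on the difference within each animal. TPM of 2 groups was compared by exact permutation. Correlations used log2(TPM + 0.1) minus the group mean and every permutation within groups (25920 in the BLA, 4320 in the DG, 288 for animals). Alternatives were DESeq2 1.42.0, limma 3.58.1 on log2(TPM + 1) or log2(TPM + 0.1), RLE, no filter, other libraries and a replicate block. The tests were tried on simulated data. Members, arms and lists were chosen with earlier results of these data known. The genes named are all 10 members, list genes with an adjusted p under 0.05 or otherwise up to 3 with the smallest p, and the 5 genes most alike to Nr1d1 and to Arntl. Each library is another animal per region, so standard errors reflect the spread between animals at depths of 11656439 to 22801247 counts.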

Additional observations from a re-analysis of the deposited data

Results flagged for a closer look

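In the control groups, 20 sets of values (10 members in 2 regions) were looked at for a library far from the rest, and 2 had one, where chance gives about 1 in 20. Per1 was at 21.53 TPM and Per2 at 18.25 TPM in the BLA control library of animal 27, with a gap to the next control of 0.69 and 0.64 of the whole range of the 6 controls. In the libraries left out of the comparisons, some members lay above the controls used. In the BLA library of animal 2 this was so for 5 members, Npas2 (52.69 TPM), Per1 (26.57 TPM), Per3 (16.33 TPM), Cry1 (8.26 TPM) and Dbp (148.85 TPM), and its summed TPM of striatal and central amygdala markers was 1650 against 275 to 859 in the controls used. In the DG library of animal 35, Dbp was above the controls used (142.96 TPM), 5 members were below them, among them Clock (3.28 TPM) and Nr1d2 (17.28 TPM), and Nr1d1 (74.77 TPM) was inside their range. The part of neighboring tissue in these values was not tested.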

How the results depend on the processing

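No member passed the adjusted threshold in any of the 103 fits of a comparison under another setting. Counts of members at an unadjusted p under 0.05 moved. For DG stress-high against stress-low (2 members) it was 0 with all mapped libraries, 1 with each limma setting and 1 to 3 without single libraries, and for DG stress-low against control (2 members) 1 with all mapped libraries, DESeq2 and each limma setting and 1 to 2 without single libraries. Over all genes the first comparison had 251 of 14089 with all mapped libraries, and 349 of 14195 to 681 of 14199 without single libraries. The second had 798 of 14089, and 581 of 14245 to 1587 of 14000. The limma settings gave 440 of 14493 to 636 of 18896 and 891 of 14493 to 1146 of 18896, in that order. DESeq2 gave 897 of 18833 for stress-low against control. In each BLA comparison (0 members) the count of members was 0 to 1 without single libraries, the 1 being Arntl without control 27, Nr1d2 without stress-low 30 and Nr1d1 without control 32. Over all genes it was 235 of 15447 to 603 of 15404 for stress-high against stress-low without single libraries. It was 390 of 15189 to 526 of 15192 for stress-low and 291 of 15447 to 494 of 15436 for stress-high against control. Limma on each animal's difference between the regions gave 1 member at an unadjusted p under 0.05 for stress-high against stress-low (Nr1d2, -0.29). Of all genes, 571 of 13865 stood there. The replicate numbers of the titles did not pair the libraries (r of same-numbered libraries from -0.11 to 0.07 in the BLA and from -0.18 to 0.12 in the DG). The fit with the replicate block gave 1 member for stress-high against stress-low in the BLA, 1 in the DG and 1 for DG stress-low against control. Over all genes it gave 292 of 15230, 359 of 14080 and 762 of 14080 in the same order.

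The median r of the 15 E-box and D-box pairs on log2 CPM was 0.67 (BLA) and 0.32 (DG), and with all mapped DG libraries 0.32. Between the arms the BLA median was -0.43 on log2 CPM and -0.31 in controls alone, and the DG median was 0.47 with all mapped libraries, 0.03 on log2 CPM and -0.10 (without control 14) to 0.35 without single libraries. BLA pairs past the threshold (12) numbered 20 with all mapped libraries, 6 on log2 CPM, 5 by rho, 0 in controls alone and 3 to 13 without single libraries. The 1 DG pair was lost (0) with all mapped libraries, without subtraction of group means, by rho and in 9 of the 11 fits without a single library. In the DG fits without a control, too few permutations remain for 1 pair alone to pass, and the same holds for the BLA controls alone. Controls alone were not run in the DG, which has 5. The median r between regions was 0.13 with all animals, and the call of Dbp was lost (0 members) with all animals, on log2 CPM and without each single animal (0 to 0). Without a single animal, too few permutations remain for 1 member alone to pass, so those fits could not keep a call of Dbp alone. Beyond these limits of the permutations, the cause of the changes was not tested.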
